A study of Mus musculus with 121 samples.

Results

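The genes described here are 34 genes of DNA replication and S phase, chosen by known function, of 23946 genes measured in single bone marrow cells. All 34 were in the table. Every cell came from C57BL/6 mice with the R412X allele of Gfi1, a zinc finger repressor needed for neutrophil formation. The labels write this genotype as Gfi1-R412X/- and also as HTZ, and every cell carries both forms. Cells with unmutated Gfi1 were not analysed here, so nothing below measures what the allele does. No age, sex or treatment is given in the labels, and no label names an animal. Marrow was enriched for CD117 (Kit), the stem cell factor receptor, on beads. Cells were then sorted by flow cytometry and captured on the Fluidigm C1, a microfluidic chip that isolates cells before cDNA synthesis. Sorted cells carry 1 of 2 labels, CD11b+ GMP-P for 46 and GMP for 75. A deposited table places each cell in 1 of 12 states, and these names are used as deposited.

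DNA replication starts when Cdc6 and Cdt1 load the ring of Mcm proteins onto origins before S phase. Cdc45 and the GINS proteins turn that ring into the moving helicase. Polymerases alpha, delta and epsilon then copy the strands while Pcna, loaded by the Rfc complex, clamps them to the template. Ribonucleotide reductase (Rrm1 and Rrm2), Tyms, Tk1 and Dut keep the nucleotides in supply, and Chaf1 and Slbp serve the new chromatin. In marrow, early granulocyte progenitors divide, whereas later neutrophil precursors leave the cell cycle while they fill with granule proteins.

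Run names divide the cells further. The 46 CD11b+ GMP-P cells share 1 run name, and 62 GMP cells, called other GMP here, share another. The last 13 GMP cells carry 2 run names dated late July and are called late July GMP. The run name of the CD11b+ GMP-P cells can be read as the same date. No label says whether these sets shared a run, so a run here means a set of run names. The CD11b gene, Itgam, gave signal in 5 of 62 other GMP cells, 35 of 46 CD11b+ GMP-P cells and 11 of 13 late July GMP cells. Ngp, a neutrophil secondary granule gene, was in every cell of the last 2 sets and in 0 of 62 other GMP cells (a count of 0 allows up to 4.84%). Cd34, a progenitor marker, was in 61 of 62 other GMP cells and in 5 of 13 late July cells. The late July cells thus went against their GMP label on these markers, and they are given apart unless pooling is stated. Each late July cell shared a cell number with a CD11b+ GMP-P cell, but the highest correlation of such a pair was 0.607, against 0.728 for any pair of cells, so none was a copy. The sort label and the run cannot be told apart, since no run name occurs in both populations. Each population counts as 1 sample, so no p-value is given, an SD is over cells and is no replicate error, and differences between states are descriptions. The states were assigned on these same cells.

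Detection of the replication genes differed between states, with overlap of single cells between most of them. Levels are in TPM, a cell's transcripts scaled for gene length and to a fixed total. A gene counts as detected in a cell at 1 TPM or more, and the share given first is that of cells with at least 17 of the 34 genes. Intervals are exact 95% binomial intervals and cover counting error only. Among other GMP cells, the share was 31 of 32 in Mono (96.9%, interval 83.8 to 99.9%), 9 of 9 in Gran-1, 5 of 5 in cMoP and 10 of 11 in MP (90.9%, interval 58.7 to 99.8%). The lowest, median and highest numbers of genes detected were 13, 28 and 34 in Mono, 21, 30 and 33 in Gran-1, and 15, 26 and 30 in MP. The cMoP cells had 19, 23, 25, 29 and 29. The intervals of these 4 states overlapped, which tests no difference between them. The single cells of rarer states were below 17, with 4 genes in the HSCP-1 cell, 6 and 11 in the Multi-Lin cells and 11 in the MDP cell, except the Gran-2 cell of this run, which had 26.

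Among CD11b+ GMP-P cells the share was 12 of 13 in Gran-2 (92.3%, interval 64 to 99.8%) and 5 of 6 in Mono (83.3%, interval 35.9 to 99.6%). In Myelo-1 it was 2 of 5 (40%), where the cells had 6, 10, 12, 24 and 27 genes. It was 3 of 11 in Myelo-2 (27.3%, interval 6.02 to 61%), where the lowest, median and highest numbers were 1, 10 and 25. In Myelo-4 no cell of 7 reached it (a count of 0 allows up to 42.9%), and the numbers were 1, 2 and 8. The intervals of Gran-2 and Myelo-2 do not overlap, whereas those of Myelo-1 and Myelo-2 do. The 3 Gran-1 cells of this run had 12, 16 and 31 genes, and the single Myelo-3 cell had 8. Late July cells gave 4 of 7 in Myelo-2 (57.1%, interval 18.4 to 90.1%) with 6, 18 and 26 genes, and their 3 Myelo-4 cells had 2, 4 and 11. Their Gran-1 cells had 22 and 27, and their Gran-2 cell 16. Over both runs, 0 of 10 Myelo-4 cells reached 17 (a count of 0 allows up to 30%). The summed level of the 34 genes had a median of 5756 TPM in Mono of other GMP. In CD11b+ GMP-P it was 4587 TPM for Gran-2, 6345 TPM for Myelo-1, 1089 TPM for Myelo-2 and 53.3 TPM for Myelo-4. The single Myelo-3 cell had 11711 TPM, and late July Myelo-2 cells had a median of 3554 TPM. The sum thus did not fall with each Myelo state, and a few abundant genes can set it.

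**Figure D1:**
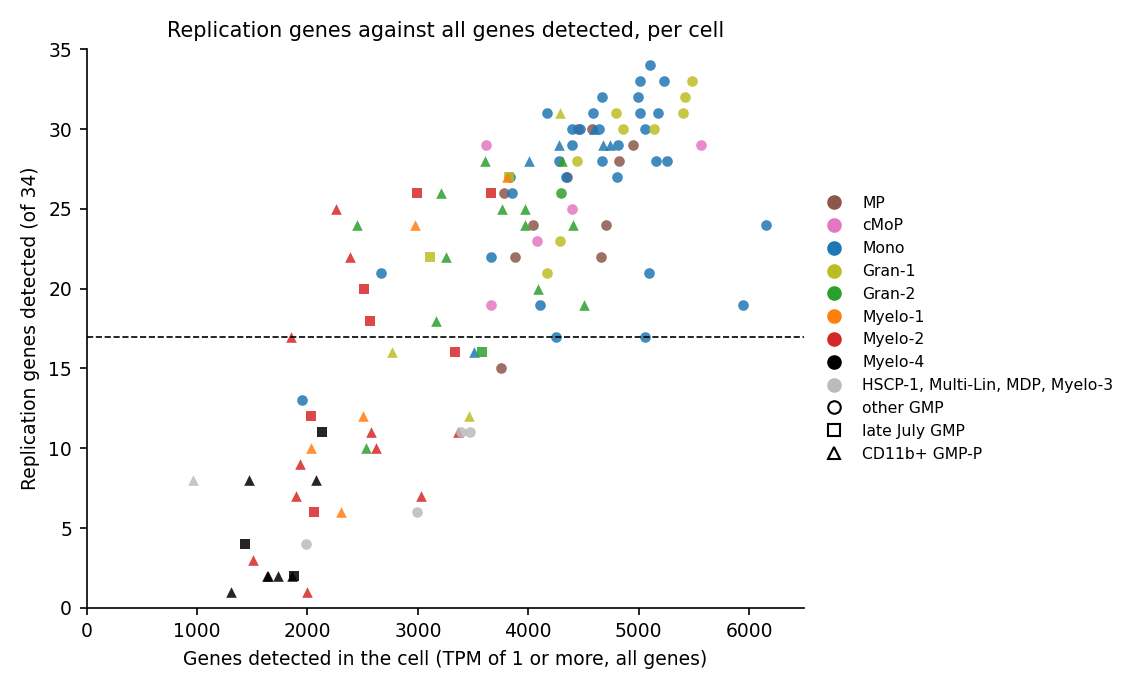
Each point is 1 cell, with all genes detected at 1 TPM or more on the x axis and replication genes detected, of 34, on the y axis. Colour gives the state, symbol shape gives the run, and the dashed line is 17 genes. Myelo-4 cells (black) lie at the lower left with 1 to 11 genes, and no cell with 4000 or more detected genes lies below the line.

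The number of all detected genes moved with these shares. Its median was 4672 in Mono of other GMP, and in CD11b+ GMP-P it was 3760 for Gran-2, 2261 for Myelo-2 and 1642 for Myelo-4. Across cells, replication genes detected and all genes detected had a Spearman correlation of 0.595 in other GMP (62 cells) and 0.825 in CD11b+ GMP-P (46 cells), given as a description since both come from the same libraries. TPM keeps no number of reads, so cells could not be thinned to 1 depth, and cells were compared in bands of detected genes instead. From 3000 to under 4000 detected genes, 7 of 7 Gran-2 cells and 0 of 2 Myelo-2 cells of CD11b+ GMP-P reached 17 replication genes, and among late July cells 0 of 1 and 1 of 2. From 2000 to under 3000, it was 1 of 2 Gran-2, 1 of 4 Myelo-1, 2 of 4 Myelo-2 and 0 of 1 Myelo-4 cells of CD11b+ GMP-P, and 3 of 5 Myelo-2 and 0 of 1 Myelo-4 cells of late July GMP. Below 2000 it was 1 of 5 Myelo-2 and 0 of 6 Myelo-4 cells of CD11b+ GMP-P and 0 of 2 late July Myelo-4 cells. These bands hold few cells, and in the range from 2000 to under 3000 Gran-2 and Myelo-2 had the same share. Over all runs pooled, all 41 cells from 4000 to under 5000 and all 17 with 5000 or more reached it. Per 1000 detected genes, the median number of replication genes was 6.29 for Gran-2, 3.81 for Myelo-2 and 1.22 for Myelo-4 of CD11b+ GMP-P. Among late July cells it was 4.47 in the single Gran-2 cell, 7.0 for Myelo-2 and 2.79 for Myelo-4, and the single Myelo-3 cell of CD11b+ GMP-P had 8.27. The 20 most abundant genes of a cell took a median of 29.2% of its TPM for Gran-2, 56.8% for Myelo-2 and 65.5% for Myelo-4. How far depth and RNA content account for the shares was not tested, and fewer transcripts per cell cannot be told apart from poorer capture.

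Promoter sequence was looked at because S phase genes are the textbook targets of E2F factors. RefSeq promoter windows of build GRCm38.p6, from 250 bases before to 50 after the start, were matched for 28 of the 34 genes. Any of the 4 E2F-type words TTTCGCGC, TTTCCCGC, TTTGGCGC and TTTGCCGC, on either strand, occurred in any window of 11 of these 28 (39.3%) and in 704 of 27025 genes with a window (2.60%). Some of these words overlap each other. The 11 were Mcm3, Mcm5, Mcm6, Mcm7, Cdc6, Cdt1, Pola1, Pold1, Rfc3, Lig1 and Uhrf1. The word CCAAT, the core of the NF-Y element, on either strand, was in 16 of 28 (57.1%) and in 41.1% of all genes. A match describes letters in the window and not a bound site. The stretches below lie before the start and are shown 5′ to 3′ on the gene's strand, with the matched word in capitals. In the first set, E2F-type words stand in Mcm genes, in the loader Cdc6, in Pola1 and in Rfc3.
Mcm5, chr8:75109336-75109387, plus strand: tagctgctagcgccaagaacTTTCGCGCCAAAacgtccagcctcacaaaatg
Mcm6, chr1:128359725-128359835, minus strand: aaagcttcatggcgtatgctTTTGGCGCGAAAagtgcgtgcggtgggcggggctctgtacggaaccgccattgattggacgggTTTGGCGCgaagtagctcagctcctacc
Mcm7, chr5:138172021-138172068, minus strand: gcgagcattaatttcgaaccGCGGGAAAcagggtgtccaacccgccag
Cdc6, chr11:98907993-98908040, plus strand: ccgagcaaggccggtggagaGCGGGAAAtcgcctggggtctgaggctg
Pola1, chrX:93632266-93632313, minus strand: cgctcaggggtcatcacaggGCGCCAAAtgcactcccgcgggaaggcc
Rfc3, chr5:151651209-151651238, minus strand: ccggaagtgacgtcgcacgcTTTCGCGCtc
Neither Pcna nor Rrm2, among the most abundant replication genes, held one of the E2F-type words in its window, but each held CCAAT, in Pcna on the opposite strand.
Pcna, chr2:132253243-132253287, minus strand: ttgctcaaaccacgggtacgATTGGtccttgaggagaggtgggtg
Rrm2, chr12:24708184-24708228, plus strand: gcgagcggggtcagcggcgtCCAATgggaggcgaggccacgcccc

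State comparisons used the difference of the mean of log2(TPM + 1), over genes detected in 10% or more of the cells of either state. A gene was counted as higher or lower at a difference of 1 or more on this scale, which understates the fold of low genes. For Gran-2 minus Myelo-2 in CD11b+ GMP-P, 27 of 33 replication genes kept were higher and 0 lower, while 43.4% of all genes kept were higher and 5.29% lower. The median difference was 2.35 for the replication genes and 0.83 for all genes. Of the 33, 3 were kept through Gran-2 alone and so had to lie on that side. As a log2 ratio of mean TPM plus 1, which a few high cells can set, the medians were 0.88 and 1.13. On that measure 16 of 33 were higher, against 52.5% of all genes, so the replication genes no longer stood above all genes. For Gran-2 minus Myelo-4, 33 of 33 were higher, against 52.7% of all genes higher and 5.71% lower, with medians of 3.54 and 1.09. Here 18 of the 33 were kept through Gran-2 alone, so the full count is a description. For Myelo-2 minus Myelo-4, 23 of 32 were higher and 0 lower, against 30.7% and 10.9% of all genes, with medians of 1.58 and 0.42, and 17 were kept through Myelo-2 alone. Ung was not kept in these 3 comparisons, nor Pola1 in the last. These comparisons share cells, so they are not independent of each other.

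**Figure D2:**
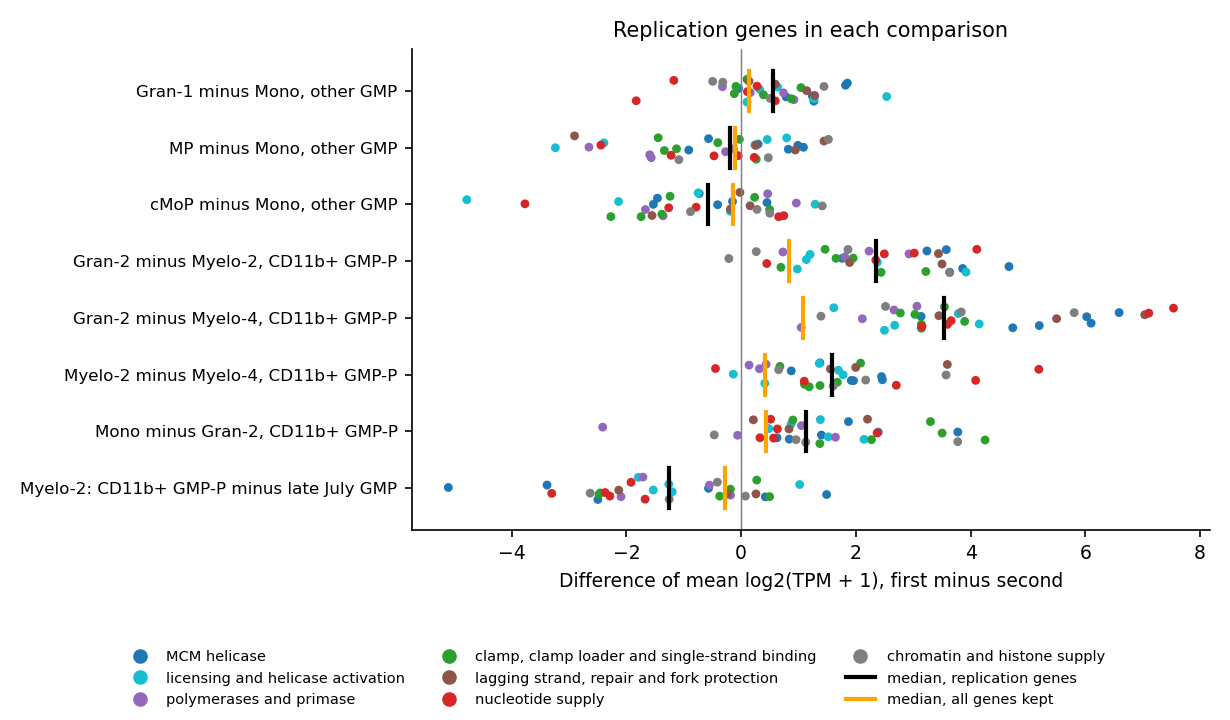
Each point is 1 replication gene kept in that comparison, coloured by role, and the x axis is the difference of mean log2(TPM + 1), first state minus second. Black bars are medians of the replication genes and orange bars medians of all genes kept: 2.35 against 0.83 for Gran-2 minus Myelo-2, and 0.55 against 0.14 for Gran-1 minus Mono.

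The 6 Mcm genes, Mcm2 to Mcm7, encode the replicative helicase. Their mean level was 6.06 in Mono of other GMP on the log2(TPM + 1) scale, and in CD11b+ GMP-P it was 5.46 for Gran-2, 2.0 for Myelo-2 and 0.16 for Myelo-4. All 6 were higher in Gran-2 than in Myelo-2, by 1.76 (Mcm2) to 4.67 (Mcm3). The lowest, median and highest levels of Mcm3 were 0.00, 7.36 and 8.93 in Gran-2, 0.00, 0.20 and 8.75 in Myelo-2, and 0.00, 0.00 and 1.21 among Myelo-4 cells. Mcm7 read 0.00, 6.54 and 10.12 in Gran-2 and 0.00, 0.00 and 8.93 in Myelo-2, where 2 of 11 cells had it. Most Myelo-2 cells thus had no Mcm7 while a few were as high as Gran-2 cells, so the states overlapped at single cell level. In Myelo-4 the highest value of any Mcm gene in any of the 7 cells was 2.20, for Mcm7, and Mcm2, Mcm5 and Mcm6 were detected in none.

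Cdc6 and Cdt1 load the helicase, and Cdc45, Gins1 and Gins2 activate it. Their mean level was 3.91 in Mono of other GMP, 3.24 for Gran-2, 1.31 for Myelo-2 and 0.29 for Myelo-4. Cdc45 had the largest difference of this group between Gran-2 and Myelo-2. Its lowest, median and highest levels were 0.00, 5.38 and 9.61 in Gran-2, with 9 of 13 cells detecting it, and 0.00, 0.00 and 9.07 in Myelo-2, with 1 of 11, a difference of 3.92. Cdc45 did not differ by 1 between Myelo-2 and Myelo-4 (difference -0.14), where 1 of 7 Myelo-4 cells had it at 7.39. Gins1, with a difference of 0.98 between Gran-2 and Myelo-2, stayed just under the threshold. Cdc6, Gins1 and Gins2 were detected in no Myelo-4 cell of this run.

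The catalytic subunits of polymerases alpha, delta and epsilon (Pola1, Pold1 and Pole) and of primase (Prim1) were the least detected role among other GMP cells, where each was found in 54.8% of cells on average. Their mean level was 3.19 in Mono of other GMP and 2.64, 0.72 and 0.42 in Gran-2, Myelo-2 and Myelo-4. Pole was lowest in Mono, with a median of 1.33 and a highest value of 8.5, in 18 of 32 cells. Prim1 was highest of the 4 in Gran-2, where its lowest, median and highest values were 0.00, 5.35 and 9.51 in 8 of 13 cells detecting it. It was in 3 of 11 Myelo-2 and 2 of 7 Myelo-4 cells, and none of the 3 polymerase genes was in any Myelo-4 cell.

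Pcna is the sliding clamp, Rfc2 to Rfc5 belong to its loader, and Rpa2 is a subunit of the protein that covers single-stranded DNA. Pcna was the most abundant of the 34 by mean in Gran-1 of other GMP, with lowest, median and highest levels of 7.69, 9.37 and 9.996. Its values in CD11b+ GMP-P were 0.00, 7.29 and 10.28 in Gran-2, 0.00, 2.73 and 10.57 in Myelo-2, and 0.00, 2.70 and 9.32 among Myelo-4 cells. It was detected in 11 of 13, 8 of 11 and 5 of 7 of these cells. Pcna was therefore found in most Myelo-4 cells, at a low median, when the rest of the list was mostly missing. Rfc3, Rfc5 and Rpa2 were in no Myelo-4 cell, and Rfc2 and Rfc4 in 1 each. Rfc4, with a difference of 3.22, had the largest gap of this group between Gran-2 and Myelo-2, and Rfc5, with 0.69, the smallest.

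Fen1 and Lig1 process and join lagging strand fragments, Tipin protects the fork as the partner of Timeless, and Ung removes uracil from DNA. Tipin read 0.00, 7.48 and 9.82 (lowest, median and highest) in Gran-2, 0.00, 4.43 and 10.06 in Myelo-2 and 0.00, 0.00 and 0.50 among Myelo-4 cells. It was detected in 12 of 13, 6 of 11 and 0 of 7 cells, and its difference between Gran-2 and Myelo-4 was 7.03. Fen1 had a median of 6.23 in Gran-2 and 0.00 in Myelo-2, and was in 0 of 7 Myelo-4 cells. Ung stood apart as the gene at the lowest level in several states. It was in 24 of 62 other GMP cells, 1 of 13 Gran-2 cells, and none of the 6 Mono, 11 Myelo-2 and 7 Myelo-4 cells of CD11b+ GMP-P. The highest Ung level in other GMP was 7.68 in Mono, 8.17 in MP and 8.92 in cMoP, where 7 of 11 MP cells and 1 of 5 cMoP cells had it.

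Nucleotide supply was the most detected role in Myelo-2 of CD11b+ GMP-P. Its 5 genes were detected in 56.4% of these cells on average, against 31.8% for the Mcm genes, and at a mean level of 3.44 against 2.0. Rrm2, the small reductase subunit made in S phase, read 0.98, 9.53 and 11.04 (lowest, median and highest) in Gran-2 and 0.00, 7.51 and 11.54 in Myelo-2, with 12 of 13 and 8 of 11 cells detecting it. In Myelo-4 it read 0.00, 0.00 and 6.25, with 1 of 7 cells, a difference of 5.19 between Myelo-2 and Myelo-4. Rrm1, the large subunit, had medians of 7.76, 5.19 and 0.14 in the same order, with all 13 Gran-2 cells between 4.73 and 8.37 and no Myelo-4 cell above 0.23. Gran-2 and Myelo-4 therefore did not overlap for Rrm1. How many of all genes separate these cells in this way was not counted, and 52.7% of all genes kept were higher in Gran-2. Tyms, which makes thymidylate, was in 13 of 13, 9 of 11 and 5 of 7 cells, with medians of 5.87, 2.34 and 1.83, so in Myelo-4 it was detected as often as Pcna. Dut, which removes dUTP, had the second largest difference between Gran-2 and Myelo-2 at 4.11. Its lowest, median and highest levels were 1.82, 5.87 and 9.28 against 0.00, 0.00 and 5.09. Tk1, the salvage kinase, differed by 0.45 and was in 7 of 13 Gran-2 and 4 of 11 Myelo-2 cells.

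Chaf1a and Chaf1b assemble nucleosomes behind the fork, Uhrf1 guides maintenance methylation of DNA, and Slbp binds the stem-loop of histone mRNA. Slbp was nearly level between Gran-2 and Myelo-2, with a difference of 0.26. Its lowest, median and highest values were 0.00, 5.57 and 8.62 in Gran-2, 0.00, 4.8 and 9.23 in Myelo-2, and 0.00, 0.00 and 5.89 among Myelo-4 cells. All 5 Myelo-1 cells had Slbp, at 2.76, 5.87, 7.57, 9.37 and 10.17. Uhrf1 had medians of 7.92, 1.68 and 0.16 in Gran-2, Myelo-2 and Myelo-4, in 12 of 13, 6 of 11 and 1 of 7 cells. Chaf1a was sparse, in 3 of 13 Gran-2 and 2 of 11 Myelo-2 cells, and both Chaf1 genes were in no Myelo-4 cell of this run.

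**Figure D3:**
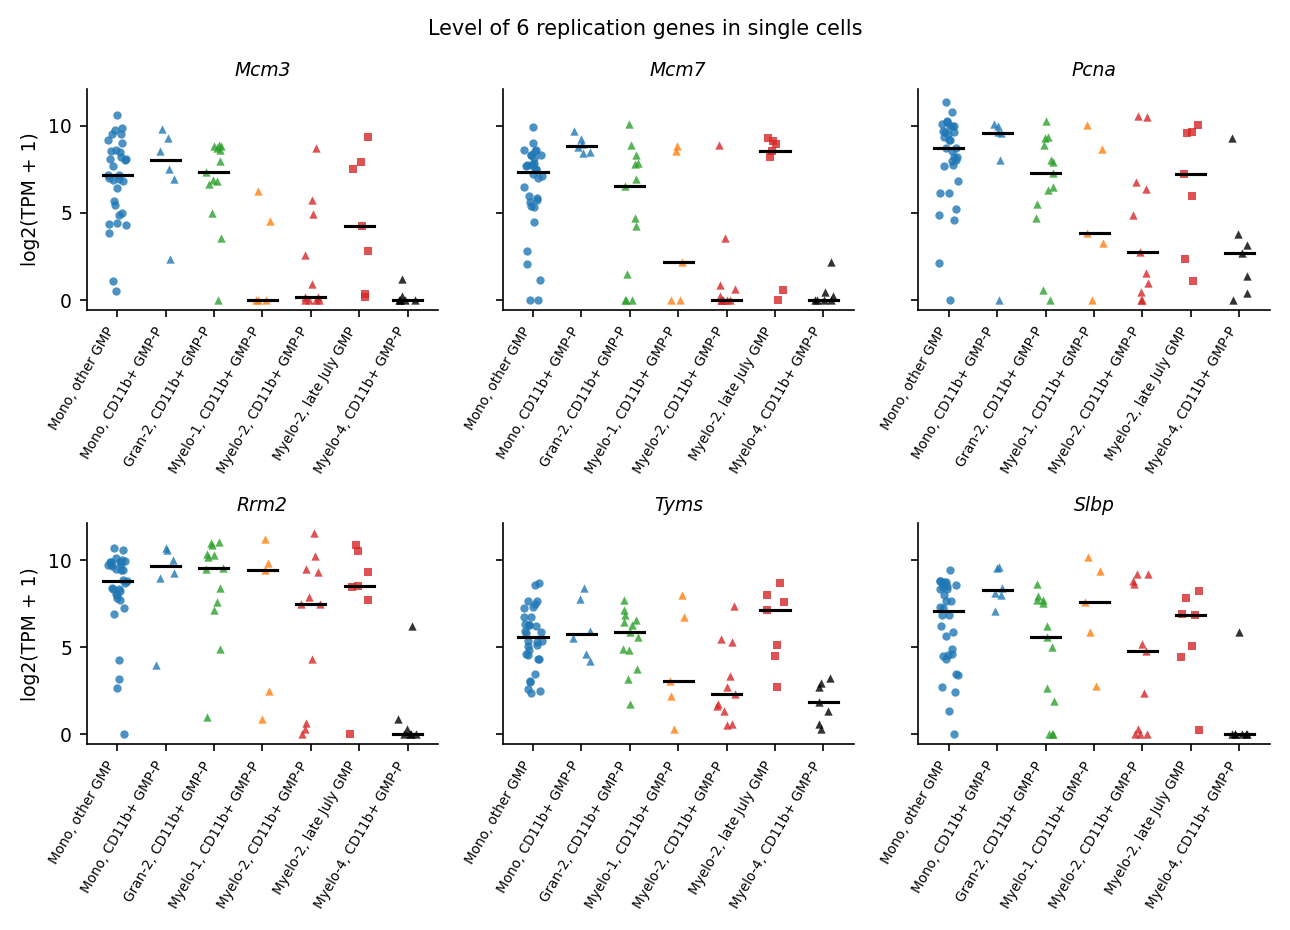
Each point is 1 cell, the y axis is log2(TPM + 1), colour and shape give state and run as labelled on the x axis, and bars are medians. Mcm3 and Mcm7 have medians of 0.20 and 0.00 in Myelo-2 of CD11b+ GMP-P, where the Rrm2 median is 7.51 and the Slbp median 4.8.

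The genes still detected in the later states came from several roles. In Myelo-2 of CD11b+ GMP-P, 7 of the 34 genes were detected in more cells than not: Tyms (9 of 11), Pcna and Rrm2 (8 each), Rrm1 and Slbp (7 each), and Tipin and Uhrf1 (6 each). In Myelo-4, 2 were, Pcna and Tyms, and 19 were in none of the 7 cells, for each of which a count of 0 allows up to 42.9%. The same counts were not made over all genes, so they are no trait of the replication genes alone. Median detected genes were 3760 in Gran-2, 2261 in Myelo-2 and 1642 in Myelo-4. The largest differences between Gran-2 and Myelo-2 were those of Mcm3 (4.67), Dut (4.11), Cdc45 (3.92) and Mcm7 (3.86). Between Myelo-2 and Myelo-4 they were those of Rrm2 (5.19), Rrm1 (4.09), Tipin (3.59) and Slbp (3.57). The summed level of 12 neutrophil granule markers moved in the opposite direction. Its median was 177771 TPM for Gran-2, 432163 TPM for Myelo-2 and 512167 TPM for Myelo-4. Of the 12, 11 were found in 50% or more of each state's cells. The list runs from Mpo and Elane to Ngp, Ly6g, S100a8 and S100a9. A few abundant genes can set such a sum, and the direction of single markers was not compared. With the 20 most abundant genes of each cell removed and TPM rescaled, the median differences of the replication genes were 2.04 for Gran-2 minus Myelo-2, 3.43 for Gran-2 minus Myelo-4 and 1.76 for Myelo-2 minus Myelo-4.

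**Figure D4:**
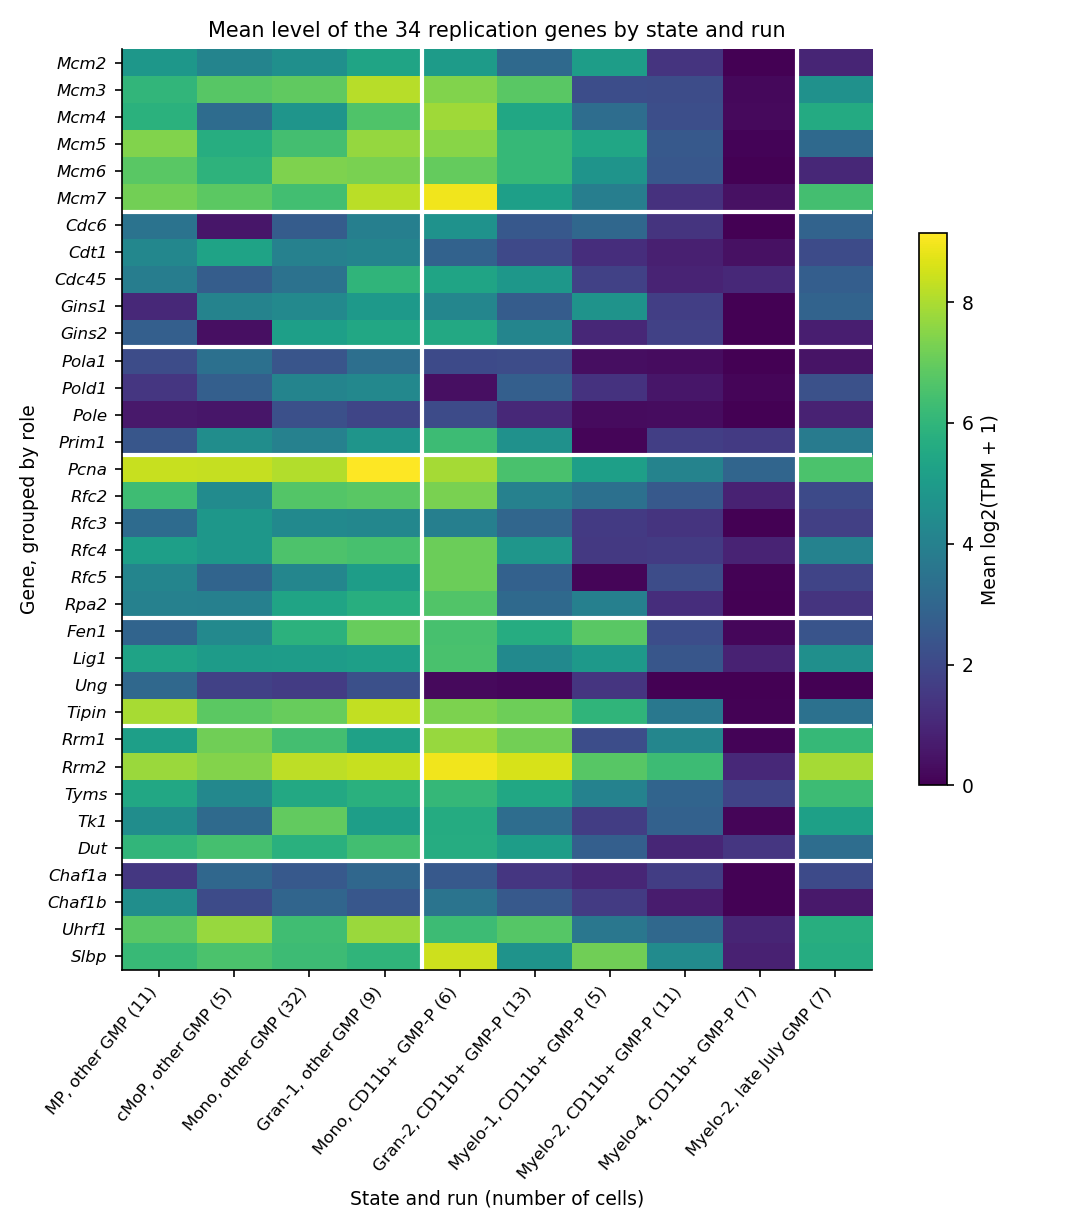
Colour gives the mean log2(TPM + 1) of each gene (rows, grouped by role) in each state and run with 5 or more cells (columns, number of cells in brackets), and white lines part roles and runs. The Myelo-4 column is dark for all roles, with Pcna at 2.97 and Tyms at 1.85 as its brightest fields.

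Within other GMP, Gran-1 was compared with Mono over 9 and 32 cells. Of 34 replication genes, 10 were higher in Gran-1 and 2 lower, against 16.5% and 7.62% of all genes, with medians of 0.55 and 0.14. The higher genes were led by Cdc45 and included 4 Mcm genes. Cdc45 read 0.00, 6.70 and 8.46 (lowest, median and highest) in Gran-1 and 0.00, 2.70 and 9.14 in Mono, a difference of 2.54. Mcm4 read 4.21, 6.53 and 8.11 against 0.00, 5.69 and 9.20, a difference of 1.85, and Mcm7 read 5.83, 8.39 and 10.19 against 0.00, 7.36 and 9.92, a difference of 1.82. All 9 Gran-1 cells had Mcm4, whereas 25 of 32 Mono cells did. The 2 lower genes both serve nucleotide supply. Tk1 had medians of 5.32 and 8.12, a difference of -1.83, and Rrm1 had medians of 4.59 and 6.84, a difference of -1.17. Single cells of the states overlapped for each of these genes. This comparison depended on the scale and on the range of detected genes. As a log2 ratio of mean TPM plus 1, the median was 0.01, against -0.08 for all genes. On that measure 1 of 34 genes was higher and 1 lower, against 17.8% and 24.2% of all genes. With cells of 2000 to under 5000 detected genes, the median was 0.22, against 0.03 for all genes. In that range 5 of 34 were higher and 8 lower, against 21.3% and 13.98% of all genes. Under both alternatives the count of higher replication genes did not stand above the share of all genes.

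MP was compared with Mono over 11 and 32 cells. Of 34 genes, 3 were higher in MP and 12 lower, against 8.87% and 13.4% of all genes, with medians of -0.20 and -0.11. Roles differed. The 6 Mcm genes had a median difference of 0.56, with Mcm4 higher by 1.09 and none lower, while the 4 polymerase and primase genes had a median of -1.58, with 3 lower. Gins1 read 0.00, 0.00 and 7.43 in MP and 0.00, 4.26 and 9.38 in Mono (lowest, median and highest), a difference of -3.24. Fen1 read 0.00, 1.67 and 8.32 against 0.00, 6.75 and 9.29, a difference of -2.90. Pold1 had medians of 0.00 and 4.56 (difference -2.65), Tk1 of 4.31 and 8.12 (difference -2.44), and Gins2 of 0.00 and 6.27 (difference -2.39). The higher genes were Chaf1b (1.52), Ung (1.44) and Mcm4. All 11 MP cells had Mcm2, Mcm5, Mcm7, Pcna, Rfc2, Tipin, Rrm2, Tyms and Dut, while 4 had Gins1 and 2 had Pole.

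The 5 cMoP cells were also compared with Mono. Of 34 genes, 2 were higher in cMoP and 13 lower, against 15.8% and 20.1% of all genes, with medians of -0.57 and -0.14. Gins2 was at 0.00 in 4 cMoP cells and at 1.80 in the fifth, against a median of 6.27 in Mono, a difference of -4.78. Tk1 was at 0.00 in 3 cells and at 7.53 and 8.33 in the others, a difference of -3.77. Rfc2 was at 0.00, 0.00, 4.69, 8.63 and 8.77, a difference of -2.27, and Cdc6 was above 0 in 1 cell, at 2.68, a difference of -2.14. Uhrf1 was high in each cMoP cell, at 6.88, 7.06, 7.79, 7.99 and 8.97, and was 1.41 above Mono. Cdt1 was the other gene higher, by 1.29, at 1.77, 5.17, 5.42, 7.06 and 7.07. With 5 cells, 1 cell moves each of these means. As a log2 ratio of mean TPM plus 1, 12 of 34 genes were lower in cMoP, against 38.5% of all genes, with medians of -0.54 and -0.41. On that measure the count of lower replication genes did not stand above the share of all genes.

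Mono and Gran-2 of CD11b+ GMP-P were compared over 6 and 13 cells. In Mono, 18 of 33 replication genes kept were higher and 1 lower, against 31.3% and 11.8% of all genes, with medians of 1.13 and 0.43. Rfc5 read 4.35, 7.94 and 8.89 in Mono and 0.00, 1.28 and 7.93 in Gran-2 (lowest, median and highest), a difference of 4.25. Mcm7 read 8.45, 8.86 and 9.72 in Mono, with all 6 cells within a narrow range, against 0.00, 6.54 and 10.12, a difference of 3.78. Slbp read 7.05, 8.26 and 9.62 against 0.00, 5.57 and 8.62, also a difference of 3.78, and Rpa2 had medians of 7.47 and 0.00, a difference of 3.5. Pold1 went the other way, in 0 of 6 Mono cells and 7 of 13 Gran-2 cells, a difference of -2.41. It was kept through Gran-2 alone, so the filter favoured that side. In Mono of other GMP, Pold1 was in 24 of 32 cells with a median of 4.56. Rrm1, Rrm2, Tyms and Dut differed by less than 1 between Mono and Gran-2, at 0.51, 0.33, 0.63 and 0.57.

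Of the states found in both CD11b+ GMP-P and late July GMP, only Myelo-2 had 5 or more cells in each (11 and 7), and the replication genes were lower in the former. Of 33 genes kept, 2 were higher and 19 lower, against 11.4% and 23.1% of all genes, with medians of -1.26 and -0.29. Of the 33, 3 were kept through late July GMP alone, which favours the lower side. Mcm7 read 0.00, 0.00 and 8.93 in CD11b+ GMP-P and 0.00, 8.57 and 9.32 in late July GMP (lowest, median and highest), a difference of -5.10. Mcm4 had medians of 0.32 and 6.81 (difference -3.38), Tyms of 2.34 and 7.14 (difference -3.30) and Uhrf1 of 1.68 and 7.82 (difference -2.63). All 5 nucleotide supply genes were lower in CD11b+ GMP-P. The 2 higher genes were Mcm6, by 1.49, and Gins2, by 1.02. Median detected genes were 2261 and 2570, and granule marker sums were close, at 432163 and 430801 TPM. With cells of 2000 to under 5000 detected genes, 6 and 7 cells, the median difference was -0.76. Of the 33 genes, 15 were lower in that range, against 20.5% of all genes. Sort label and run cannot be told apart here.

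Mitosis genes did not follow the replication genes in every state. A list of 20 mitosis genes was scored the same way, with 10 of 20 as the mark. In Mono of other GMP, 21 of 32 cells reached the mark of both lists, 10 of the replication list alone and 0 of the mitosis list alone. In MP these counts were 3, 7 and 0 of 11, in Gran-1 5, 4 and 0 of 9, and in Gran-2 of CD11b+ GMP-P 9, 3 and 0 of 13. In Myelo-2 of CD11b+ GMP-P, 1 of 11 cells reached both marks, 2 the replication list alone, 6 the mitosis list alone (54.5%, interval 23.4 to 83.3%) and 2 neither. Cells with the mitosis list alone were also found in other states of that run, in 2 of 3 Gran-1, 2 of 5 Myelo-1 and 1 of 6 Mono cells. Over both runs, Myelo-2 had 4, 3, 8 and 3 of 18 cells in that order. All 10 Myelo-4 cells reached neither. The median difference of the mitosis list was -1.67 for MP minus Mono, with 15 of 20 lower, against 13.4% of all genes. It was -1.02 for Gran-1 minus Mono, with 10 of 20 lower, against 7.62%. For Gran-2 minus Myelo-2 it was 0.85, near the 0.83 of all genes, with 9 of 20 higher, against 43.4% of all genes. For Myelo-2 minus Myelo-4 it was 2.39, against 0.42 for all genes. The larger difference of the mitosis list thus lay at the later step, whereas for the replication genes (2.35 and 1.58) it lay at the earlier one. As log2 ratios of mean TPM plus 1 this order turned for the replication genes, to 0.88 and 5.09, and the mitosis list was not computed on that measure. Across cells, the numbers detected from the 2 lists had a Spearman correlation of 0.137 in other GMP, 0.542 in CD11b+ GMP-P and 0.322 in late July GMP, where each list also moved with all detected genes.

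**Figure D5:**
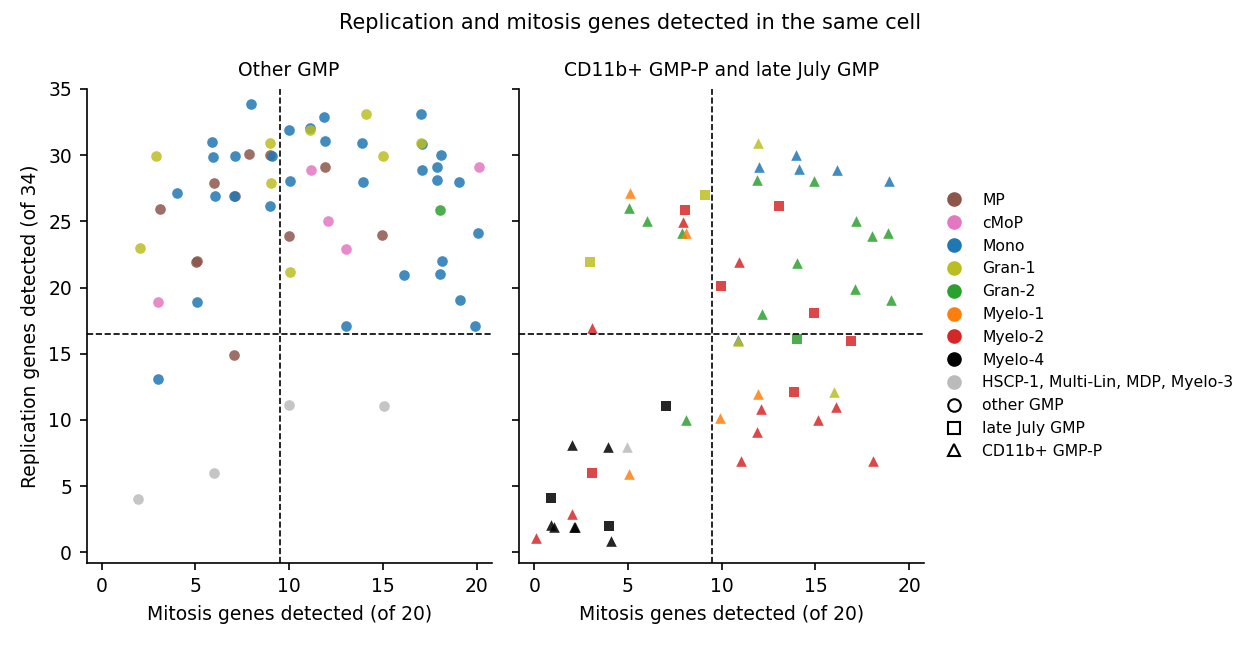
Each point is 1 cell, with mitosis genes detected (of 20) on the x axis and replication genes detected (of 34) on the y axis, slightly jittered, and dashed lines mark 17 replication and 10 mitosis genes. The lower right corner, mitosis list alone, holds 6 of the 11 Myelo-2 cells of CD11b+ GMP-P, and all Myelo-4 cells lie at the lower left.

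A wider list of 61 other genes of the pathway (origin and helicase factors, fork machinery, S phase regulators, nucleotide and chromatin genes) is set beside the share of all genes in the same comparison. For Gran-2 minus Myelo-2, 29 of 54 kept were higher (53.7%, against 43.4% of all genes) and 1 lower. For Gran-2 minus Myelo-4, 44 of 54 were higher (81.5%, against 52.7%), and for Myelo-2 minus Myelo-4, 21 of 39 were higher (53.8%, against 30.7%) and 1 lower. In each comparison of this list, genes kept through 1 state alone lean to that side by the filter. How many there were was not counted, so these counts are descriptions. Gmnn, the inhibitor of Cdt1, had means of 7.05 in Gran-2 and 1.65 in Myelo-2, a difference of 5.40. Asf1b, a histone chaperone, had means of 6.60 in Myelo-2 and 0.33 in Myelo-4, a difference of 6.27. It was in 9 of 11 and 0 of 7 cells, so it was kept through Myelo-2 alone. For Gran-1 minus Mono, 17 of 59 were higher (28.8%, against 16.5%) and 3 lower, led by the cyclin Ccne2 at 3.46 and the chromatin remodeller Hells at 2.57, with Rbbp7 at -2.22. For MP minus Mono, 5 of 59 were higher (8.47%, against 8.87%) and 6 lower (10.2%, against 13.4%), so these shares were near those of all genes, and the cyclin Ccna2 was at -2.05. For cMoP minus Mono, 8 of 58 were higher and 24 lower (41.4%, against 20.1%), and Gins4, a partner of Gins2, was in 0 of 5 cMoP and 17 of 32 Mono cells. For Mono minus Gran-2, 20 of 60 were higher and 0 lower, and the share of 33.3% was near the 31.3% of all genes. The polymerase delta subunits Pold2 and Pold3 were at 3.73 and 3.45. Their sign was opposite to that of Pold1, which was kept through Gran-2 alone. For Myelo-2 of CD11b+ GMP-P minus late July GMP, 6 of 53 were higher and 23 lower (43.4%, against 23.1%), with Gmnn at -3.89 and Ccna2 at 2.42.

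Among the 62 other GMP cells, the replication genes varied together weakly. Over the 561 pairs, Spearman's rho had a median of 0.248 and ran from -0.123 to 0.593, 541 were above 0 and 10 reached 0.5. Rrm2 with Tk1 (0.593), Pcna with Lig1 (0.586), Mcm5 with Tipin (0.549) and Pole with Tk1 (0.543) were the closest. Lig1 and Pcna had the highest median with the other members (0.358 and 0.356), and Cdt1 the lowest (0.110). The points share libraries and depth, and sparse detection lowers rho. Outside the replication and mitosis lists, the genes closest to the mean of the 34 were 2810417H13Rik (rho 0.632), which RefSeq calls Pclaf and which encodes a Pcna-binding factor, and Atad2 (0.630), followed by Gnl2 (0.543), Ppil2, Ncapg2, Phb2, Sumo3, Snx5, Cirbp and Shmt2 (0.505). Over 6637 genes detected in 25% or more of these cells, the median was 0.113. Of the wider list, 49 genes passed the same filter, with a median of 0.309 and the lowest value for Pold4 (-0.084).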

How the data were processed

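The submitters' processing notes list Bowtie2, RSEM and mm9, without versions. The authors deposited log2 values, which back-transform to TPM: 2 to the power of the value, minus 1, sums to between 999517 and 1001450 in each cell. The deposited table holds 81.7% zeros, and read depth per cell is unknown. The other deposited kind of value is a state name per cell, by a method not given in the sources used here. Levels are log2(TPM + 1), a pseudocount of 1. Doublets were not removed. No test was run, since each population is 1 sample, and the difference rule was checked on simulated data. Members and gene lists were chosen with earlier results of these data known. All 34 genes are named, with the 4 largest differences per comparison, up to 3 wider genes per list and the 10 nearest genes. Alternatives changed the detection level, the share of members, the pseudocount, the filter, the scaling, the measure and the range of detected genes. Promoter windows and names came from RefSeq on GRCm38.p6, another build than the reads' mm9. Python 3.11.15, pandas 2.3.3 and SciPy 1.17.1 were used.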

Additional observations from a re-analysis of the deposited data

How the results depend on the processing

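No median difference of the replication genes reversed its sign under the alternatives run, and rescaling the TPM, dropping the filter or leaving out the 3 cells of 1 late July run name kept those of the shares of cells, the median differences of the replication genes and the main counts of them, in the direction of each median, that were recomputed under them within the limits used (a share within its exact interval, a median or count within 1.5 times). Values over all genes were not held to these limits. The median of the replication genes minus that of all genes did turn as a ratio of mean TPM. It went from 1.51 to -0.25 for Gran-2 minus Myelo-2 and from -0.09 to 0.06 for MP minus Mono. Shares moved with the detection rule. With any TPM above 0, the share was 100% in MP and in Mono of CD11b+ GMP-P and 76.9% in late July GMP. At 10 TPM it was 78.1% in Mono of other GMP and 79.0% in all other GMP. Asking for 12 of 34 genes gave 100% in MP and both Mono sets. Asking for 23 gave 75% in Mono and 72.6% in all of other GMP, and 61.5% in Gran-2. With 2000 to under 5000 detected genes, Mono of other GMP was at 100%. For Gran-1 minus Mono, the median was 1.04, 0.22, 0.0062 and 0.22, and its count of higher genes 18, 5, 1 and 5, with a pseudocount of 0.1, a pseudocount of 10, the ratio of mean TPM, and the range of 2000 to under 5000. In the same order, 27.5%, 5.07%, 17.8% and 21.3% of all genes were higher. For MP minus Mono the median was -0.10 as a ratio of means and -0.40 in that range. At a pseudocount of 10, 6 of 34 genes were lower for MP minus Mono and 4 of 34 for cMoP minus Mono, against 2.63% and 6.17% of all genes. Gran-2 minus Myelo-2 gave 1.48 at a pseudocount of 10, 0.88 as a ratio of means (16 of 33 higher, against 52.5% of all genes), and 1.56 in that range. Gran-2 minus Myelo-4 gave 5.39, 1.95 and 5.76 at pseudocounts of 0.1 and 10 and as a ratio of means. In the same order, Myelo-2 minus Myelo-4 gave 2.44, 0.89 (13 of 32 higher, against 13.1% of all genes) and 5.09. Mono minus Gran-2 gave 0.63 at a pseudocount of 10 and 0.65 as a ratio of means. Myelo-2 between runs gave -2.06, -0.71 (11 of 33 lower, against 7.57% of all genes) and -0.44 at pseudocounts of 0.1 and 10 and as a ratio of means, and -0.76 in that range. The cause of these moves was not tested. The range of 2000 to under 5000 left 1 Myelo-4 cell of CD11b+ GMP-P, so its share and both Myelo-4 comparisons were not run there. No paired analysis was possible because no label gives a replicate number and no result comes from a test.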
